A study of Mus musculus with 5 samples.

Results

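The genes of the inflammasome and of pyroptosis were followed across the cell types of mouse interscapular brown adipose tissue (iBAT) in single-nuclei RNA-sequencing data. They are 10 genes, taken by symbol from the 32285 genes of the matrices: the sensors Nlrp1b, Nlrp3 and Aim2, the inflammatory caspases Casp1 and Casp4, the membrane-rupturing proteins Gsdmd, Gsdme and Ninj1, and the cytokines Il1b and Il18. All 10 had UMIs (unique molecular identifiers, each standing for 1 captured RNA molecule) in both matrices, 6008 in all in the first and 3545 in the second.

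Pyroptosis is an inflammatory form of cell death. A sensor protein that detects danger inside the cell assembles an inflammasome, which activates caspase-1, while caspase-11, the product of mouse Casp4, senses bacterial lipopolysaccharide directly. These caspases cut gasdermin D, whose fragment opens pores in the plasma membrane through which mature IL-1β and IL-18 leave the cell, and ninjurin-1 then ruptures the membrane. The machinery is best known from macrophages, and which cells of brown fat transcribe it is the question that the levels by cell type address.

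The study sequenced sorted nuclei of iBAT from male mice on a C57BL/6J background. One matrix combines a littermate control (WT) library and a Ucp1-STX4KO library, both of mice 3 months old. Ucp1-STX4KO mice carry Ucp1-Cre+/- and STX4 fl/fl, so that syntaxin 4 is deleted where the Ucp1 promoter drives Cre, in brown adipocytes, and for another assay of the study the control mice are described as carrying either the Cre or the floxed alleles. The other matrix combines libraries of C57BL/6J mice aged 2, 12 and 24 months. There was 1 library per condition and no replicate. The methods name 4 male mice as the source of the tissue, and whether that is for each library or in all is not given in the sources used here. The libraries of a matrix differ in their barcode suffix, and no source used here ties a suffix to a genotype or an age. Each matrix was therefore read as a pool, its libraries are called library 1, 2 and 3 after the suffix, and no difference between genotypes or ages was drawn. Libraries of the same number in the 2 matrices are different samples.

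The WT and Ucp1-STX4KO matrix held 20307 barcodes (11201 in library 1 and 9106 in library 2) and 116053743 UMIs, with a median of 5998 and 3284 UMIs per barcode. The aging matrix held 30000 barcodes and 54656055 UMIs and was shallower, with medians of 891, 1635 and 1720 UMIs in libraries 1 to 3. Of these, 20307 and 27842 nuclei had at least 200 UMIs and 100 genes and were kept. The number of barcode sequences that libraries shared was 23 in the first matrix and 28, 45 and 28 between the pairs of the second.

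Nuclei were assigned to cell types by lists of marker genes, and 94.3% and 94.6% of the kept nuclei received a type (gated nuclei). In the WT and Ucp1-STX4KO matrix, 14933 nuclei (73.5%) were adipocytes, 1310 stromal nuclei (fibroblasts or progenitors), 920 macrophages, 648 endothelial, 642 mural (pericytes or smooth muscle), 354 skeletal muscle, 197 T or NK lymphocytes, 89 B lymphocytes or dendritic cells, and 63 Schwann cells. The libraries differed in makeup: library 1 was 92.2% adipocytes with 88 macrophages, and library 2 was 50.5% adipocytes with 832 macrophages. In the aging matrix, 18299 nuclei (65.7%) were endothelial and 2039 (7.32%) were adipocytes, with 3885 mural, 999 Schwann, 964 stromal and 159 macrophage nuclei, of which 33, 77 and 49 came from libraries 1 to 3. The labels give the cell type of all 5 samples as brown adipocytes, and the adipocyte markers Adipoq, Plin1 and others did not mark most nuclei of the aging matrix. Levels are given as CPM, the UMIs of a gene per 1000000 UMIs summed over the nuclei of a cell type, with exact 95% Poisson intervals. All intervals cover counting error only, and they say nothing of how animals vary. A level in a single library is given for types with at least 50 nuclei there.

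**Figure D1:**
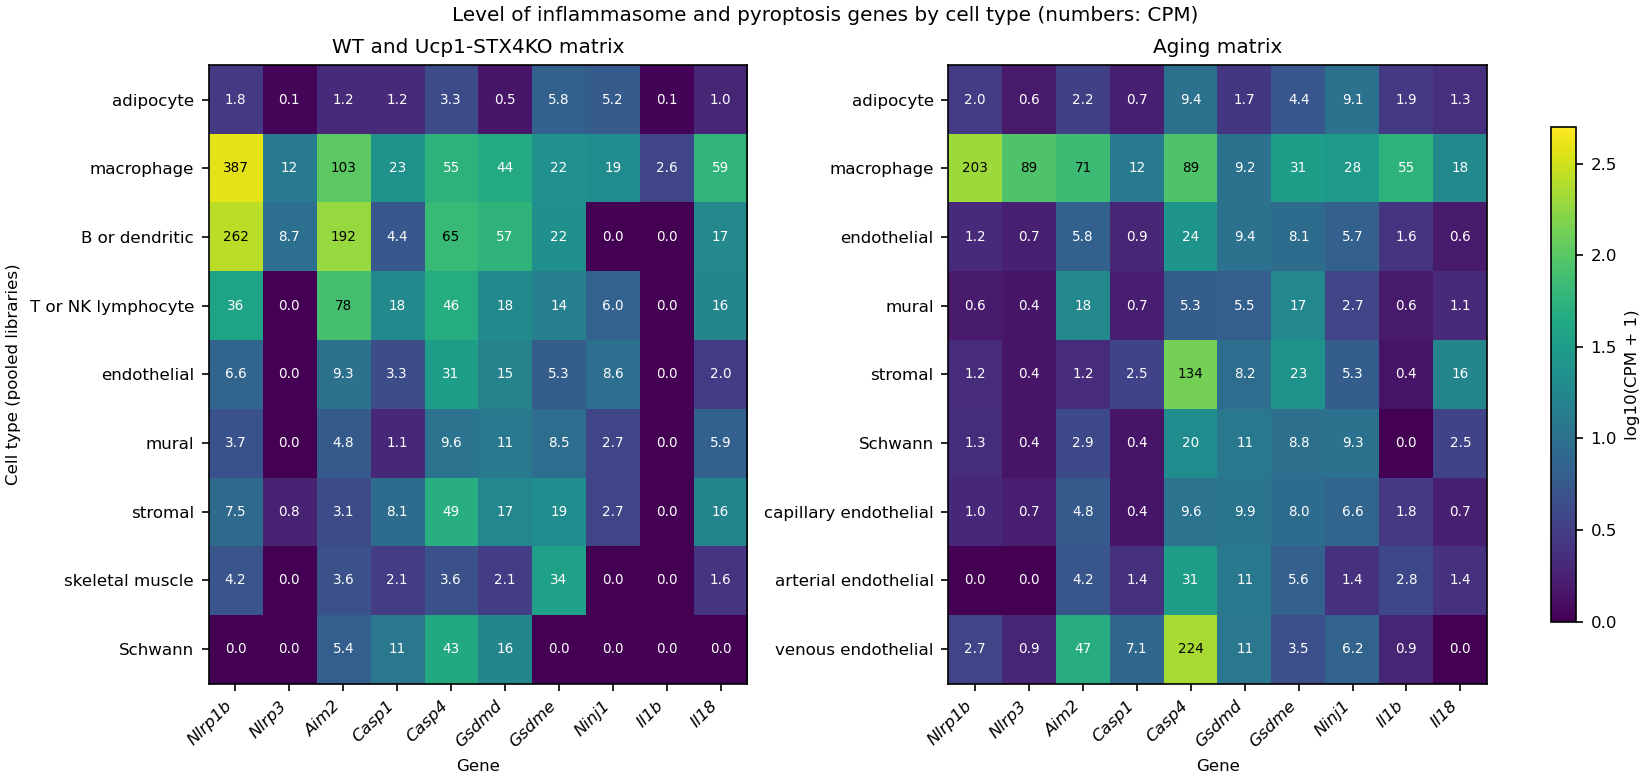
Heat maps of the level of each of the 10 genes (columns) in each cell type (rows), with the libraries of a matrix pooled; the number in a cell is the CPM and the colour its log10(CPM + 1). Read down a column, Nlrp1b is highest in macrophages (387 CPM in the WT and Ucp1-STX4KO matrix, 203 CPM in the aging matrix), and Casp4 of the aging matrix is highest in venous endothelial (223.5 CPM) and stromal nuclei (134.5 CPM).

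Upstream sequences are shown for Nlrp1b and Aim2, the members whose windows held the PU.1 letters described here, and for Casp4, which carries the stromal and venous result below. RefSeq windows from 250 bases before to 50 after the start of transcription were found for 9 of the 10 genes (12 windows), with none for Gsdmd. They were searched on both strands for 3 motifs: the interferon response element ISRE (GAAA, any 2 bases, GAAA), the PU.1 site (GAGGAAGT) and the NF-kB site (GGGA, any 4 bases, CC). PU.1 is a transcription factor of myeloid and B lymphoid cells, and NF-kB is the factor that primes inflammasome genes. The PU.1 letters stood in 1 window each of Nlrp1b and Aim2, and occur in 3.11% of the 32544 mouse windows of the same length. The NF-kB letters stood in windows of Casp4 and Nlrp3, and occur in 20.8% of all windows. ISRE letters, which occur in 3.45% of windows, were in no window of these genes. A match is a description of letters and not a site shown to be bound. The 120 bases before a RefSeq start, which need not be the end of the gene model given below, are printed 5′ to 3′ on the strand of the gene (build GRCm38.p6), with the PU.1 letters (Nlrp1b, Aim2) or NF-kB letters (Casp4) in capitals:
Nlrp1b, chr11:71230734-71230853, minus strand: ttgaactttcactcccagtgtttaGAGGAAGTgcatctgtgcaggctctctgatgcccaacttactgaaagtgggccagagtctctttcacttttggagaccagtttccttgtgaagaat
Aim2, chr1:173420484-173420603, plus strand: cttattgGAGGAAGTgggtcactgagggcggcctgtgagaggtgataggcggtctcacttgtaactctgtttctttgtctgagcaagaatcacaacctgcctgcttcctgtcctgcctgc
Casp4, chr9:5308729-5308848, plus strand: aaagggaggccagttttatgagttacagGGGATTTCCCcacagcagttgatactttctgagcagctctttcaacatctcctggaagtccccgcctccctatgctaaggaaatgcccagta
The PU.1 letters began 96 bases before the start of Nlrp1b and 113 bases before that of Aim2, and the NF-kB letters 92 bases before that of Casp4.

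Nlrp1b, the sensor that is activated when its own N-terminal part is degraded, was highest in macrophage nuclei in both matrices. It lies on chromosome 11 (71153102 to 71230733, minus strand), where no other annotated gene overlaps it. Related copies such as Nlrp1a exist in the mouse genome, so its count is uncertain as far as reads match more than 1 copy. In macrophage nuclei of the WT and Ucp1-STX4KO matrix its level was 257 CPM in library 1 (206 to 318) and 403 CPM in library 2 (379 to 427), and these intervals did not overlap. Adipocyte nuclei of the same libraries were at 0.457 CPM (0.314 to 0.641) and 5.42 CPM (4.59 to 6.36). The macrophage level was thus 563 times the adipocyte level in library 1 (95% interval of the ratio 373 to 869.5) and 74.3 times in library 2 (62.6 to 88.7). Pooled over the libraries it was 387 CPM and the ratio 210.5 (180.1 to 247), a value that mixes the libraries, since most adipocyte nuclei came from library 1 and most macrophages from library 2. Macrophage nuclei made up 4.53% of the nuclei of this matrix and held 78.5% of the Nlrp1b UMIs of all typed nuclei (76.3 to 80.5%).

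Of 920 macrophage nuclei, 56.6% had at least 1 Nlrp1b UMI (median depth 2774 UMIs), against 0.971% of adipocyte nuclei at a median of 5913 UMIs. When every nucleus was thinned to 500 UMIs these shares were 17.8% and 0.147%. The share of macrophage nuclei with an Nlrp1b UMI was 52.3% in library 1 (41.4 to 63.0) and 57.1% in library 2 (53.7 to 60.5). The most Nlrp1b UMIs in 1 macrophage nucleus was 14.

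Nlrp1b was also present in B lymphocyte or dendritic nuclei, at 336 CPM (251 to 441) in library 2, an interval that overlapped that of the macrophages of the same library. The macrophage markers, which took part in assigning the nuclei, came to 181 CPM in those nuclei, against 2437 CPM in macrophages. Csf1r, C1qa, Ms4a7 and Cd68 were at 0 there. T or NK nuclei of library 2 were far lower at 54.4 CPM (31.1 to 88.3). Endothelial, mural and stromal nuclei of that library were at 10.8, 7.79 and 10.6 CPM. The 159 macrophage nuclei of the aging matrix, pooled, were at 203 CPM (157 to 258), and library 2 alone gave 258 CPM (184 to 353). Adipocytes were next among its main types at 2.04 CPM (1.02 to 3.65), and 3 UMIs in venous nuclei gave 2.66 CPM.

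Aim2, the sensor of DNA in the cytosol, was highest in B lymphocyte or dendritic nuclei of the WT and Ucp1-STX4KO matrix and had a second location, besides macrophages, in the aging matrix. Its model spans chromosome 1 from 173350879 to 173466040 on the plus strand and overlaps Cadm3 on the opposite strand. For macrophage nuclei, library 1 gave 84.7 CPM (56.3 to 122.5) and library 2 gave 106 CPM (93.7 to 118), with overlapping intervals. In library 2 the level was higher in B lymphocyte or dendritic nuclei (220 CPM, 152 to 307), the intervals being apart, and T or NK nuclei (109 CPM, 74.4 to 153.5) could not be told from macrophages. Adipocyte nuclei had 0.291 and 3.41 CPM in libraries 1 and 2.

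Aim2 of the aging matrix was highest in macrophages (70.7 CPM pooled, 44.8 to 106) and venous endothelial nuclei (47.0 CPM, 35.2 to 61.5), whose intervals overlapped. Venous nuclei, which line the vessels where leukocytes leave the blood, had 52.9, 50.6 and 43.4 CPM in libraries 1 to 3, and capillary nuclei 6.04, 5.16 and 3.42 CPM, so that the venous level was above the capillary level in each of the 3 libraries with no overlap of their intervals. The pooled ratio was 9.78 (6.763 to 14.04). Mural nuclei carried Aim2 as well, at 25.5 CPM in library 1 (21.0 to 30.6), 10.1 CPM in library 2 (6.104 to 15.83) and 9.35 CPM in library 3 (5.99 to 13.9). Mural nuclei held 39.8% of all Aim2 UMIs in typed nuclei of the aging matrix (34.98 to 44.87%), and endothelial nuclei 48.7%. The mural share rested on library 1, where it was 73.5%, against 14.8% and 21.6% in libraries 2 and 3. The mural nuclei of the WT and Ucp1-STX4KO matrix had 9 Aim2 UMIs in all, at 4.80 CPM (2.19 to 9.11).

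Nlrp3, the sensor of membrane damage and potassium loss, had 53 UMIs in typed nuclei of the WT and Ucp1-STX4KO matrix. Macrophage nuclei held 37 of them, at 12.1 CPM in library 1 and 12.2 CPM in library 2, and all 14933 adipocyte nuclei held 10 (0.0999 CPM). Macrophage nuclei of the aging matrix held 29 of 62 UMIs, at 89.1 CPM pooled (59.7 to 128) and 46.4 CPM in library 2. Endothelial nuclei held 24 UMIs at 0.729 CPM, and adipocyte nuclei 3 UMIs at 0.556 CPM.

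**Figure D2:**
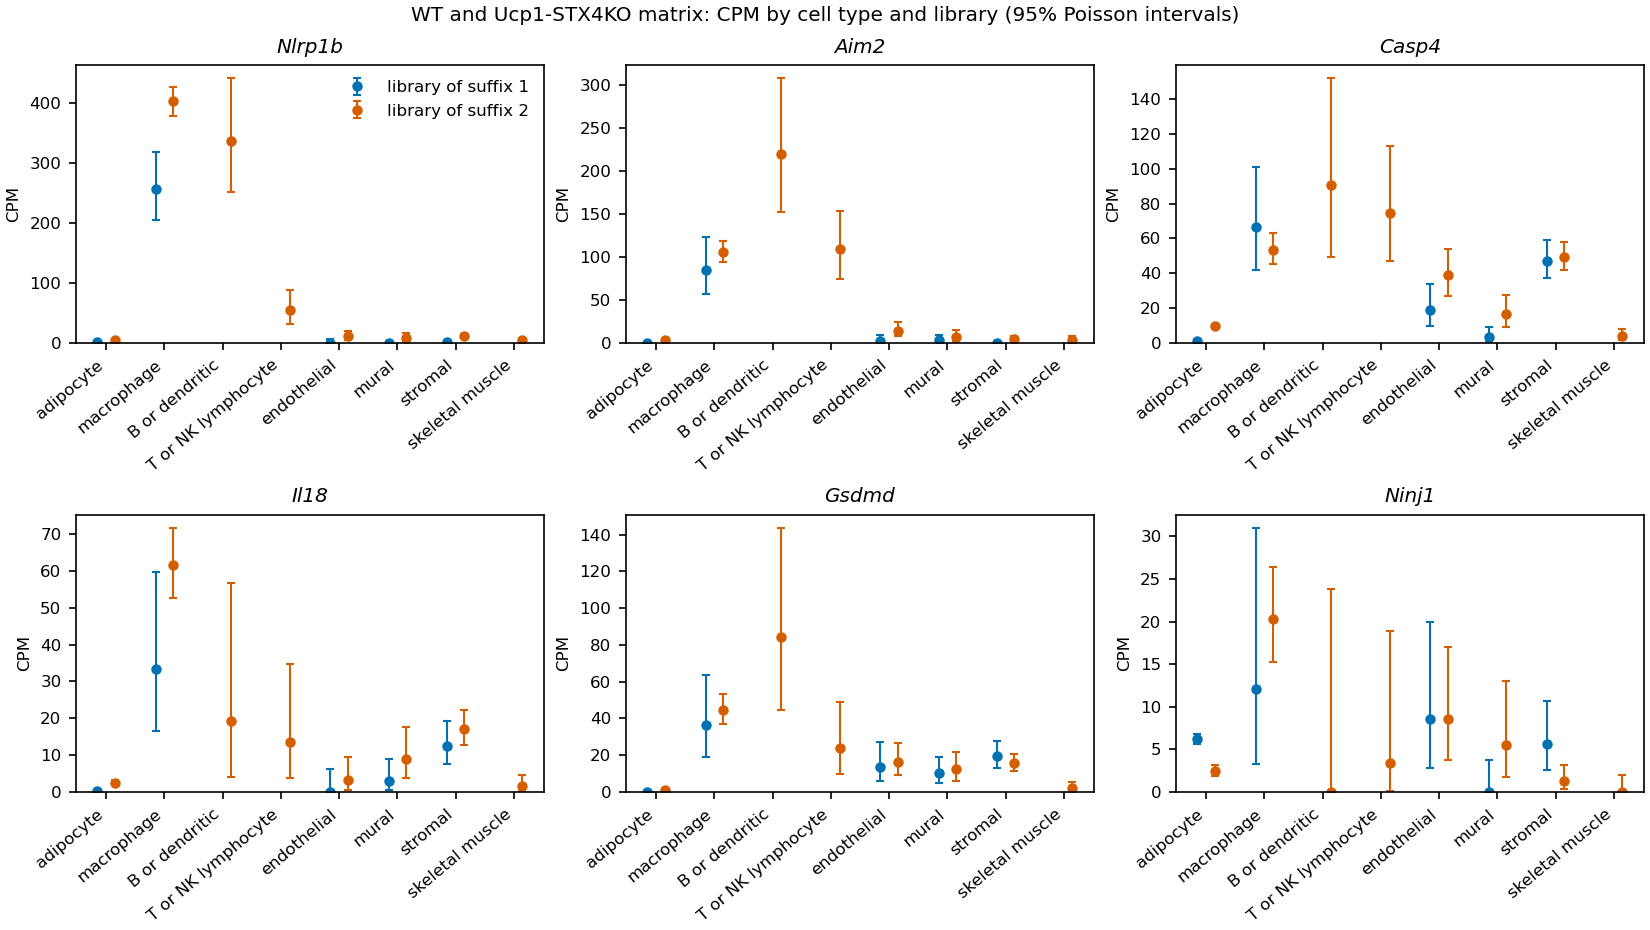
Level (CPM, linear axis from 0, each gene on its own scale) of 6 of the genes by cell type in library 1 and library 2 of the WT and Ucp1-STX4KO matrix, with exact 95% Poisson intervals; a type with fewer than 50 nuclei in a library has no point. Macrophage nuclei stand far above adipocyte nuclei for Nlrp1b, Aim2, Il18 and Gsdmd in both libraries, stromal nuclei reach the macrophage level for Casp4, and the adipocyte level of Ninj1 is 6.19 CPM in library 1 and 2.48 CPM in library 2.

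Casp1 and Casp4, the caspases that cut gasdermin D, lie next to each other on chromosome 9 and on the same strand (5298517 to 5307265 and 5308828 to 5336783), yet their UMIs were distributed differently over cell types. For Casp1, the macrophage level was 39.3 CPM in library 1 (20.9 to 67.3) and 20.7 CPM in library 2, with overlapping intervals. The adipocyte level was 0.208 CPM in library 1 (0.116 to 0.342) and 3.62 CPM in library 2 (2.952 to 4.404). Pooled macrophage (22.7 CPM) and T or NK nuclei (18.1 CPM, 8.28 to 34.4) could not be told apart, and stromal nuclei had 8.10 CPM (5.76 to 11.1). Adipocyte nuclei, the most numerous, held 47.0% of the 247 Casp1 UMIs and macrophages 27.9%. Typed nuclei of the aging matrix had 52 Casp1 UMIs, of which 31 were endothelial (0.942 CPM) and 4 were in macrophages (12.3 CPM, 3.35 to 31.5).

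Casp4 was as high in stromal nuclei as in macrophages of the WT and Ucp1-STX4KO matrix within counting error. The stromal level was 47.0 CPM in library 1 (37.0 to 58.9) and 49.4 CPM in library 2 (42.0 to 57.7), and the macrophage level was 66.6 CPM (41.7 to 101) and 53.5 CPM (45.2 to 63.0), with overlapping intervals in each library. Pooled B or dendritic (65.5 CPM), T or NK (46.3 CPM) and Schwann nuclei (43.2 CPM) also had intervals overlapping these. Endothelial nuclei, pooled, were lower than stromal nuclei (48.6 CPM, 42.6 to 55.2) at 31.1 CPM (22.8 to 41.3). In library 1 endothelial nuclei stood at 28.3% of the macrophage level and stromal nuclei at 70.6%. In library 2 endothelial and stromal nuclei stood at 72.4% and 92.3% of it, and their intervals overlapped. Pooled mural, skeletal muscle and adipocyte nuclei were at 9.60, 3.64 and 3.27 CPM. The adipocyte level was 0.830 CPM in library 1 (0.634 to 1.07) and 9.58 CPM in library 2 (8.47 to 10.8). Adipocyte nuclei, the most numerous, held 38.7% of Casp4 UMIs, stromal nuclei 27.7% and macrophages 19.7%. Macrophage markers in stromal nuclei came to 20.1 and 79.2 CPM, against 5305 and 2437 CPM in macrophages. Pooled, Casp4 in stromal nuclei stood at 88.5% of its macrophage level and the markers at 2.17%. The same markers assigned the nuclei, which itself sets their levels apart, so these percents are not like measures.

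Pooled over the libraries of the aging matrix, Casp4 was highest in venous endothelial and stromal nuclei, and library 3 set the pooled stromal level of 134.5 CPM. The level in stromal nuclei was 31.6 CPM in library 1 (20.6 to 46.3), 31.3 CPM in library 2 (18.9 to 48.9) and 279 CPM in library 3 (248 to 314). The share of stromal nuclei with a Casp4 UMI was 4.44% (2.56 to 7.12), 6.35% (3.67 to 10.1) and 38.6% (33.5 to 43.9), at median depths of 1985, 2082 and 2318 UMIs, so that library 3 stood apart in this measure as well. The macrophages, pooled, were at 89.1 CPM (59.7 to 128). In library 2, which alone had enough of them, they were at 66.2 CPM (31.8 to 121.8), above the stromal level there with overlapping intervals. The level in venous nuclei was 165 CPM (109 to 238), 116 CPM (82.6 to 159) and 298 CPM (256 to 344), and the share of venous nuclei with a UMI was 19.4%, 23.9% and 45.2%. Pooled, 33.5% of venous nuclei (median depth 2043 UMIs) had a Casp4 UMI against 1.60% of capillary nuclei (1603 UMIs), and 11.1% against 0.524% once thinned to 500 UMIs. In library 3 the Casp4 level was also higher than in libraries 1 and 2, with intervals apart, in Schwann nuclei (87.4 CPM against 12.7 and 19.8 CPM), in capillary nuclei (16.7 CPM against 6.04 and 6.99 CPM) and in all endothelial nuclei (35.7 CPM against 18.2 and 12.5 CPM). In adipocyte nuclei, libraries 1 to 3 gave 9.10, 5.45 and 17.7 CPM (10.7 to 27.7), the interval of library 3 overlapping that of library 1 (5.63 to 13.9), and arterial nuclei of libraries 2 and 3 overlapped at 32.9 and 27.3 CPM. Macrophage markers came to 2.43, 19.8 and 25.6 CPM in stromal nuclei and to 5.88, 11.9 and 25.7 CPM in venous nuclei of libraries 1 to 3, against 5207 CPM in the pooled macrophages. Of the 10 markers, which took part in assigning these nuclei, 3 were at 0 in stromal nuclei of library 3 (Csf1r, Cd163 and C1qb). In its venous nuclei 5 were at 0. Endothelial markers came to 442, 1610 and 1754 CPM in stromal nuclei of libraries 1 to 3, against 10604 CPM in pooled endothelial nuclei. They came to 329.5, 1806 and 1476 CPM in Schwann nuclei and to 622, 1517 and 2166 CPM in adipocyte nuclei. What sets library 3 apart in these types, and the part of endothelial RNA in it, was not tested.

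**Figure D3:**
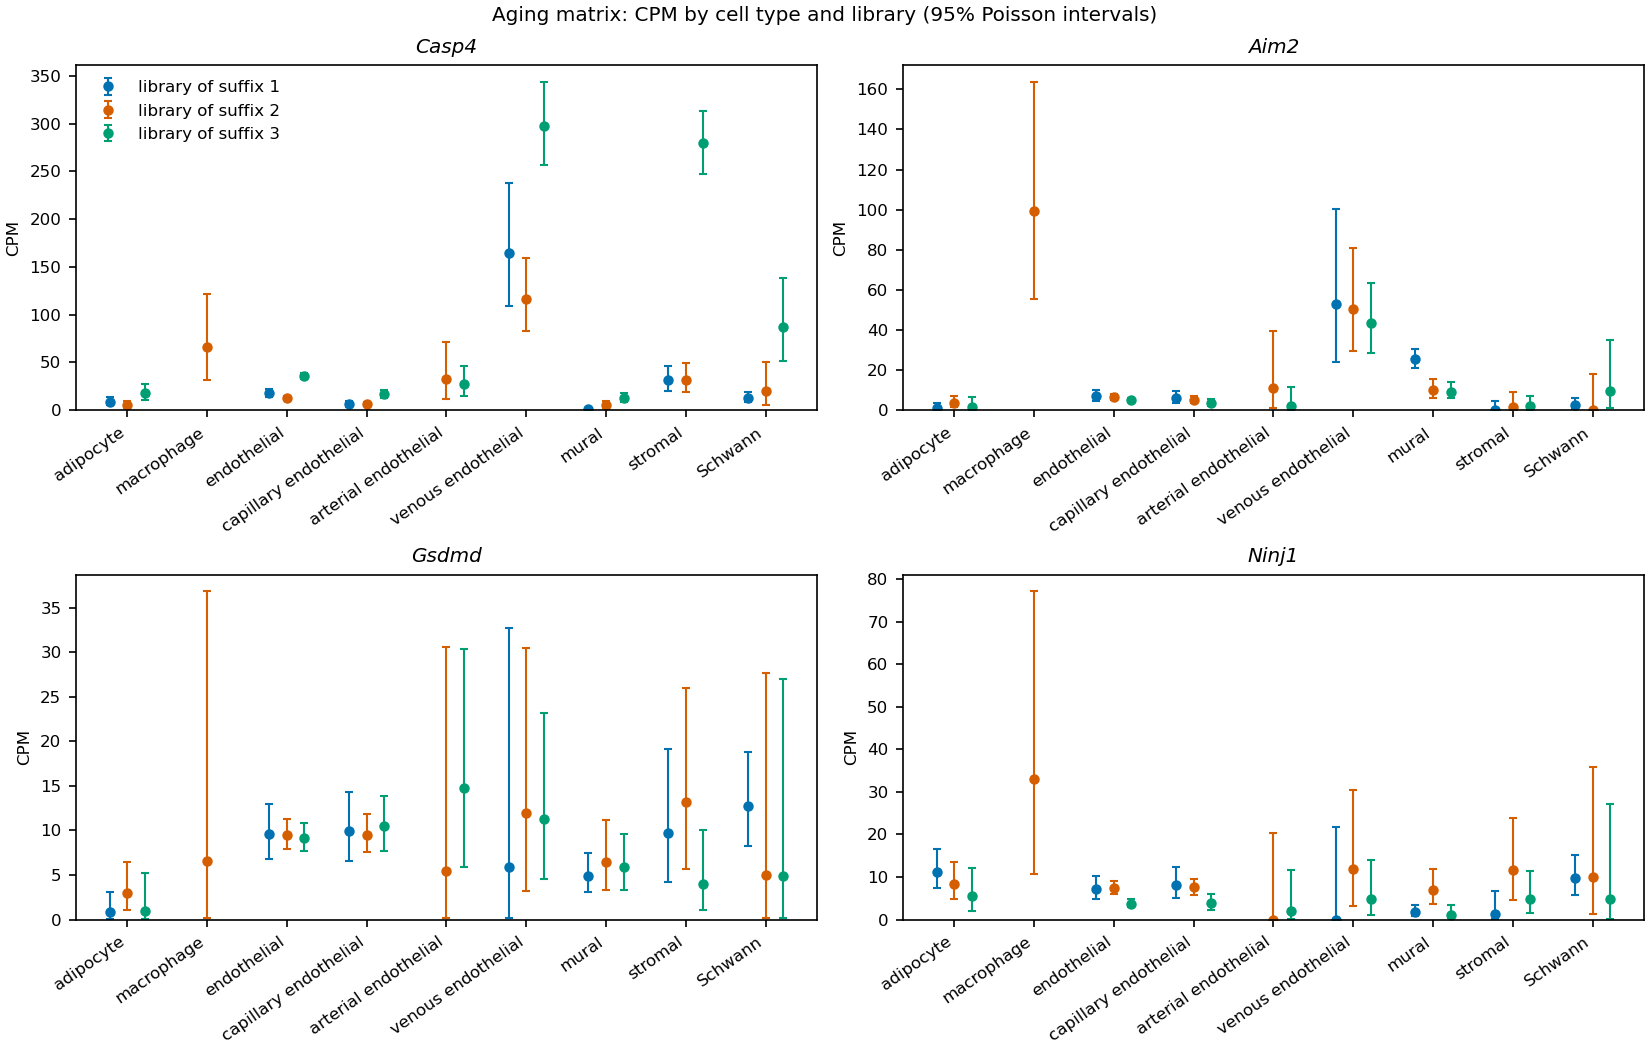
Level (CPM, linear axis from 0, each gene on its own scale) of Casp4, Aim2, Gsdmd and Ninj1 by cell type in libraries 1 to 3 of the aging matrix, with exact 95% Poisson intervals; a type with fewer than 50 nuclei in a library has no point. Casp4 in stromal nuclei is at 31.6, 31.3 and 279 CPM, venous endothelial nuclei lie above capillary nuclei for Casp4 and Aim2 in every library, and Gsdmd in endothelial nuclei is at 9.56, 9.49 and 9.19 CPM.

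Among endothelial subtypes, capillary nuclei (8306) far outnumbered venous (439) and arterial nuclei (269), 9252 endothelial nuclei received no subtype, and the 33 lymphatic nuclei were too few to describe. Venous here means nuclei assigned by Vwf, Vcam1, Selp, Ackr1, Sele and Lrg1. Whether they differ from capillary nuclei in vessel type or in the state of the cells was not tested. The Casp4 level in venous nuclei was 27.3 times that in capillary nuclei in library 1 (14.4 to 53.1), 16.6 times in library 2 (10.8 to 25.2) and 17.9 times in library 3 (13.6 to 23.6), and 23.2 times when pooled (19.0 to 28.6). With graph clusters in place of the marker assignment the pooled ratio was 11.5. Arterial nuclei lay between, at 31.1 CPM (19.5 to 47.0). Of 14480 genes with at least 20 UMIs over both subtypes, 8.59% were at least 2-fold higher in venous nuclei. Of the 10 genes, 6 had that many UMIs, and Casp4 and Aim2 were past 2-fold higher while Il1b (1 venous UMI) and Gsdme (4 venous UMIs) were past 2-fold lower, as were 19.7% of all genes, with intervals that include equality. The median log2 ratio of these 6 was 0.08 and that of all genes −0.14. The 2 genes past 2-fold higher were thus not joined by the other 4 that could be compared.

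Gsdmd, the pore-forming gasdermin that caspase-1 and caspase-11 cut, had UMIs in all 9 cell types of the WT and Ucp1-STX4KO matrix. It lies on chromosome 15 (75862327 to 75867408, plus strand). Its level in macrophage nuclei was 36.3 CPM in library 1 (18.8 to 63.4) and 44.7 CPM in library 2 (37.0 to 53.4). B or dendritic nuclei of library 2 were the highest type, at 84.1 CPM from 13 UMIs (44.8 to 144), an interval that overlapped that of the macrophages, and T or NK nuclei were at 23.8 CPM (9.57 to 49.0). Stromal nuclei were lower than macrophages in library 2, with 19.4 and 15.5 CPM (11.5 to 20.5), endothelial nuclei had 13.7 and 16.2 CPM, and mural nuclei 10.2 and 12.3 CPM. Adipocyte nuclei had 0.124 CPM from 9 UMIs in library 1 and 1.33 CPM from 37 UMIs in library 2, and pooled were the lowest type (0.459 CPM, 0.336 to 0.613) next to skeletal muscle (2.08 CPM from 4 UMIs). For the aging matrix a macrophage excess could not be seen at this depth, since 3 UMIs in macrophages gave 9.22 CPM (1.90 to 26.9), an interval that held the endothelial level (9.36 CPM, 8.34 to 10.5). Endothelial nuclei held 74.0% of Gsdmd UMIs there, with 9.56, 9.49 and 9.19 CPM in libraries 1 to 3, and Schwann nuclei were at 11.4 CPM (7.50 to 16.6). Capillary, arterial and venous nuclei were at 9.86, 11.3 and 10.6 CPM, and the venous to capillary ratio of 1.08 had an interval from 0.546 to 1.94. Endothelial markers came to 2728 CPM in pooled macrophage nuclei of the aging matrix, against 10604 CPM in endothelial nuclei. The part of endothelial RNA in the Gsdmd count of these macrophages was not tested.

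Gsdme, the gasdermin that caspase-3 cuts, and Ninj1, which ruptures the membrane of dying cells, were the members with the largest share of their UMIs in adipocytes of the WT and Ucp1-STX4KO matrix. Adipocyte nuclei held 68.99% of Gsdme UMIs in typed nuclei (65.8 to 72.1%) and 84.7% of Ninj1 UMIs (81.6 to 87.5%), neither of them above the 86.3% that these nuclei held of the UMIs of all genes in the kept nuclei. In library 1 the shares were 84.7% for Gsdme and 95.7% for Ninj1 beside 94.8% for all genes, and in library 2 they were 52.1% and 48.6% beside 69.9%. For the aging matrix the adipocyte share was 4.52% for Gsdme and 16.1% for Ninj1, where that of all genes was 9.93%, so that of the 10 members only Casp4, Aim2 and Gsdmd had a smaller share in adipocytes than Gsdme. For Gsdme the adipocyte level was 5.13 CPM in library 1 (4.63 to 5.68) and 7.61 CPM in library 2 (6.62 to 8.70), well below skeletal muscle nuclei of library 2 (32.1 CPM, 24.5 to 41.3), macrophage nuclei (39.3 and 20.3 CPM) and stromal nuclei (23.2 and 17.4 CPM). Its gene on chromosome 6 overlaps Mpp6 on the opposite strand. Gsdme of the aging matrix was found in stromal nuclei at 24.3, 18.1 and 25.6 CPM in libraries 1 to 3 and in mural nuclei at 20.8, 18.7 and 9.35 CPM, against 9.32, 7.29 and 8.48 CPM in endothelial nuclei. The 10 UMIs of its pooled macrophages gave the highest level, 30.7 CPM (14.7 to 56.5), which overlapped the pooled stromal level (23.3 CPM, 17.6 to 30.2).

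Ninj1 was the only member whose adipocyte level was lower in library 2 than in library 1 with intervals apart, at 6.19 CPM (5.63 to 6.79) and 2.48 CPM (1.93 to 3.13). The macrophage level was 12.1 CPM (3.30 to 31.0) from 4 UMIs in library 1 and 20.3 CPM (15.3 to 26.4) in library 2, so that macrophages stood above adipocytes with intervals apart in library 2 alone. Adipocyte nuclei of the aging matrix had Ninj1 levels of 11.3, 8.43 and 5.59 CPM in libraries 1 to 3, with overlapping intervals, and pooled were close to Schwann nuclei (9.08 and 9.27 CPM) and above mural nuclei (2.69 CPM, 1.72 to 4.00). The 9 UMIs of the pooled macrophages gave 27.7 CPM (12.6 to 52.5). Adipocyte markers in macrophage nuclei of the WT and Ucp1-STX4KO matrix came to 1183 CPM, against 6376 CPM in adipocyte nuclei, and both genes were higher in macrophages than in adipocytes when pooled, at 22.4 and 5.82 CPM for Gsdme and 19.4 and 5.15 CPM for Ninj1.

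The cytokine Il18, which many cells transcribe without priming, was highest in macrophages of the WT and Ucp1-STX4KO matrix. Libraries 1 and 2 gave 33.3 CPM (16.6 to 59.6) and 61.6 CPM (52.6 to 71.7) in macrophage nuclei, 12.5 and 17.1 CPM in stromal nuclei, and 0.360 and 2.51 CPM in adipocyte nuclei. The intervals of macrophage and stromal nuclei were apart in library 2 (stromal 12.9 to 22.2 CPM) and overlapped in library 1 (7.66 to 19.4 CPM). Pooled B or dendritic nuclei (17.5 CPM) and T or NK nuclei (16.1 CPM) were at the stromal level (15.6 CPM). Its gene on chromosome 9 overlaps Bco2 and Tex12, both on the opposite strand. Stromal nuclei of the aging matrix held 44.8% of its 87 UMIs (34.2 to 55.9%), with 10.9, 33.0 and 9.83 CPM in libraries 1 to 3, and the 6 UMIs of macrophages gave 18.4 CPM (6.76 to 40.1), which overlapped the pooled stromal level (15.9 CPM).

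Il1b, whose transcript is made after priming through NF-kB, had 15 UMIs in typed nuclei of the WT and Ucp1-STX4KO matrix, 8 in macrophages of library 2, none in macrophages of library 1, and 7 in adipocytes. Macrophage nuclei of the aging matrix were at 55.3 CPM (32.8 to 87.4), from 18 UMIs. Endothelial nuclei had 53 UMIs at 1.61 CPM (1.21 to 2.11), of which 39 were in library 2 (2.96 CPM, 2.10 to 4.05), 14 in library 3 (0.899 CPM, 0.492 to 1.51) and none in library 1.

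**Figure D4:**
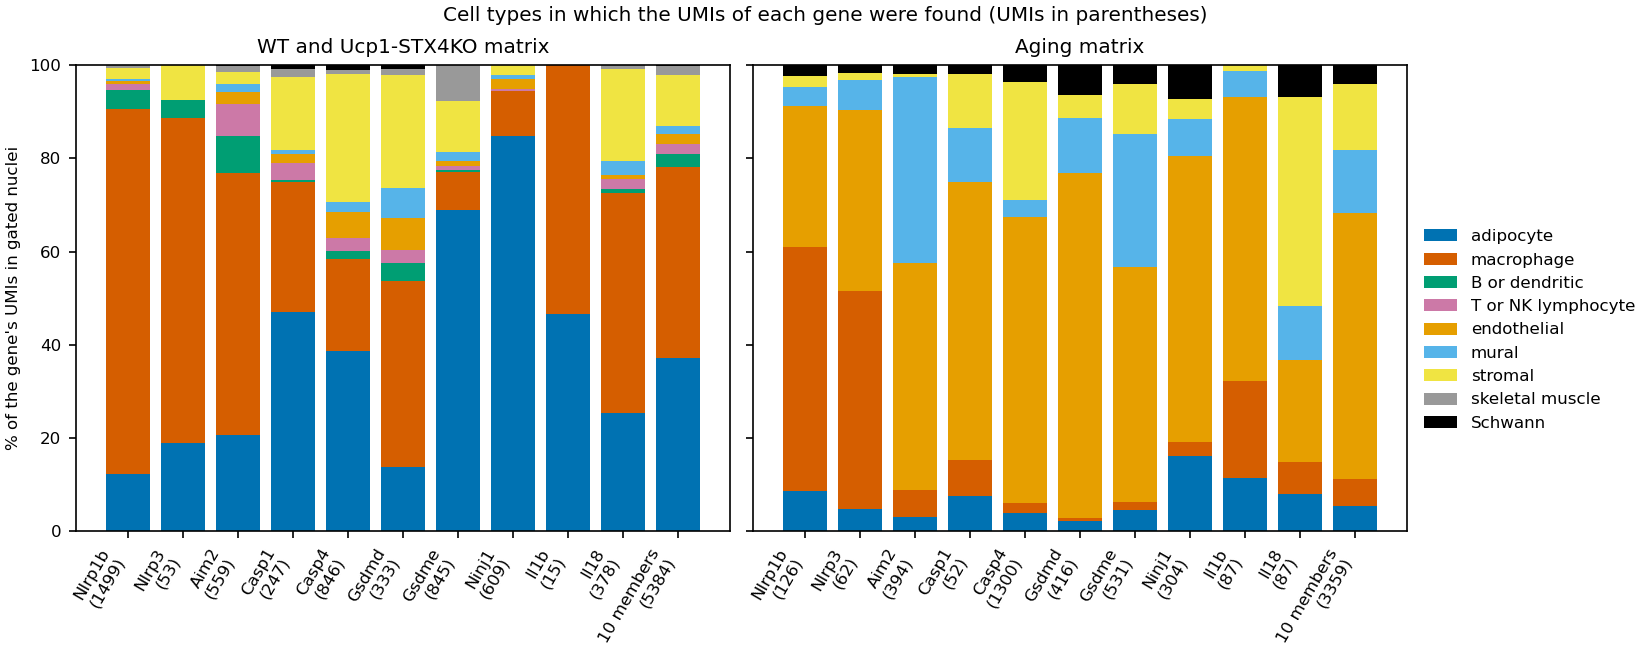
Stacked bars of the percent of each gene's UMIs (y axis) found in each cell type, for the WT and Ucp1-STX4KO matrix and the aging matrix; the number of UMIs in typed nuclei is in parentheses after the gene. Macrophages hold 78.5% of Nlrp1b UMIs and adipocytes 84.7% of Ninj1 UMIs in the first matrix, and endothelial nuclei hold 61.3% of Casp4 and 74.0% of Gsdmd UMIs in the second.

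Summed over the 10 members, macrophage nuclei of the WT and Ucp1-STX4KO matrix held 41.0% of 5384 UMIs in typed nuclei (39.7 to 42.4%), adipocyte nuclei 37.2% and stromal nuclei 10.96%, where these types held 2.62%, 86.3% and 4.15% of the UMIs of all genes in the kept nuclei. Nlrp1b alone made up 387 CPM of the 726.6 CPM of the members in these macrophages, so the sum follows Nlrp1b more than any other member. The libraries differed in the macrophage share as in makeup. Macrophages held 13.1% of these UMIs in library 1, where they were 0.786% of nuclei, and 51.5% in library 2, where they were 9.14%. Endothelial nuclei of the aging matrix held 57.0% of 3359 UMIs (55.3 to 58.7%), beside 60.6% of the UMIs of all genes in the kept nuclei, stromal nuclei 14.1%, mural nuclei 13.7%, macrophages 5.86% (0.599% of all genes) and adipocytes 5.36% (9.93%). Endothelial nuclei held 30.3% in library 1 of that matrix, where they were 39.6% of nuclei, and 65.6% and 63.8% in libraries 2 and 3.

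Macrophage and adipocyte nuclei were then compared gene by gene, since the question of which cells carry these transcripts in brown fat turns on these types. For the 10 members together, the level was 581 CPM in macrophages and 13.7 CPM in adipocytes of library 1, a ratio of 42.3 (36.1 to 49.5), and 744 and 36.2 CPM in library 2, a ratio of 20.6 (19.1 to 22.2). The pooled ratio of the aging matrix was 18.2 (14.8 to 22.3). Nlrp1b was the largest part of the macrophage sum in each of these comparisons, so these ratios do not describe the members evenly. Of 17264 genes with at least 20 UMIs over both types of the WT and Ucp1-STX4KO matrix, 22.2% were at least 2-fold higher in macrophages, with a median log2 ratio over all of them of −0.13. Of the 10 members, 9 had that many UMIs and each of these was past 2-fold, Il1b having 15, and their median log2 ratio (0.5 added to each count) was 5.93. A sparse gene enters such a count mainly through the type where it is high. The markers that define macrophage nuclei do not include any member. The same share of all genes was 19% in library 1 (7 of 8 members with enough UMIs, all but Ninj1), 25.1% in library 2 (9 of 9) and 16.4% in the aging matrix (7 of 7, with Casp1, Il18 and Gsdmd too sparse).

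The ratio varied widely among the members and between the libraries. Pooled, it was 210.5 for Nlrp1b, 122 for Nlrp3 (59.4 to 275), 95.2 for Gsdmd (67.6 to 136), 89.2 for Aim2 (71.8 to 111) and 61.1 for Il18 (47.4 to 79.1), and was lower for Casp1 at 19.6 (14.3 to 26.6) and Casp4 at 16.8 (13.9 to 20.3). For Gsdme and Ninj1 it was 3.84 (2.94 to 4.95) and 3.77 (2.83 to 4.94). The order of these pooled ratios did not hold within each library. In library 1 the ratio was 563 for Nlrp1b, 292 for both Aim2 (160 to 540) and Gsdmd (113 to 784), 189.5 for Casp1 (83.0 to 427), 175 for Nlrp3, 92.5 for Il18 (41.3 to 194), 80.2 for Casp4 (46.8 to 133), 7.66 for Gsdme (4.04 to 13.3) and 1.96 for Ninj1 (0.531 to 5.05). In library 2 it was 74.3 for Nlrp1b, 67.9 for Nlrp3, 33.6 for Gsdmd (23.1 to 50.01), 31.0 for Aim2 (24.5 to 39.5), 24.5 for Il18 (18.5 to 32.9), 8.20 for Ninj1 (5.65 to 11.9), 5.70 for Casp1 (4.04 to 7.98), 5.59 for Casp4 (4.53 to 6.86) and 2.67 for Gsdme (1.95 to 3.60). Of these 9 members Nlrp1b had the highest ratio in both libraries, with an interval apart from those of the others except Nlrp3 in library 2 and overlapping those of Gsdmd, Aim2, Casp1 and Nlrp3 in library 1, and Gsdme was below Casp4 with intervals apart in both. With the upper limits of the study's stated filter, which left 495 adipocyte and 259 macrophage nuclei, none of them from library 1, the ratio was 9.39 for Nlrp1b (6.16 to 14.9), 8.30 for Gsdmd, 6.23 for Il18, 4.68 for Aim2, 2.21 for Casp1 and for Ninj1, 2.15 for Casp4 and 1.33 for Gsdme, the intervals of Casp1, Ninj1 and Gsdme including equality.

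Adipocyte nuclei also held UMIs of the 10 macrophage markers, whose levels are set beside those of the members. The markers also assigned the nuclei, and the members did not. That assignment lowers the markers in adipocyte nuclei and raises them in macrophages, so the percents of markers and members are not like measures. Their summed level there was 8.88 CPM in library 1 and 40.5 CPM in library 2, with all 10 detected in each and F13a1 (1.88 CPM) and Mrc1 (11.6 CPM) the most abundant. This was 0.168% and 1.66% of their macrophage level, with single markers between 0.0853 and 10.5% and between 1.121 and 5.77%. Cd68 was the highest of the 10 markers in both libraries, and the next was Lyz2, at 0.406% and 4.30%. In library 2 the adipocyte level of Nlrp1b was 1.35% of the macrophage level, that of Nlrp3 1.47%, of Gsdmd 2.97%, of Aim2 3.23% and of Il18 4.08%, which is within the range of the markers. The adipocyte level of Casp1 was 17.5%, of Casp4 17.9%, of Ninj1 12.2% and of Gsdme 37.5% of the macrophage level, all above the highest marker. In library 1, Gsdme (13.1%) and Ninj1 (51.1%) were above all 10 markers, Casp4 (1.25%), Il18 (1.08%), Nlrp3 (0.572%) and Casp1 (0.528%) were above all but Cd68, and Aim2 (0.343%), Gsdmd (0.343%) and Nlrp1b (0.178%) lay among the rest. The adipocyte levels of Nlrp1b, Aim2, Casp1, Casp4, Il18, Gsdmd and Gsdme were higher in library 2 than in library 1, and that of Ninj1 was lower. The level of the macrophage markers in the same nuclei was also higher in library 2, and the part of these markers in the differences was not tested.

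**Figure D5:**
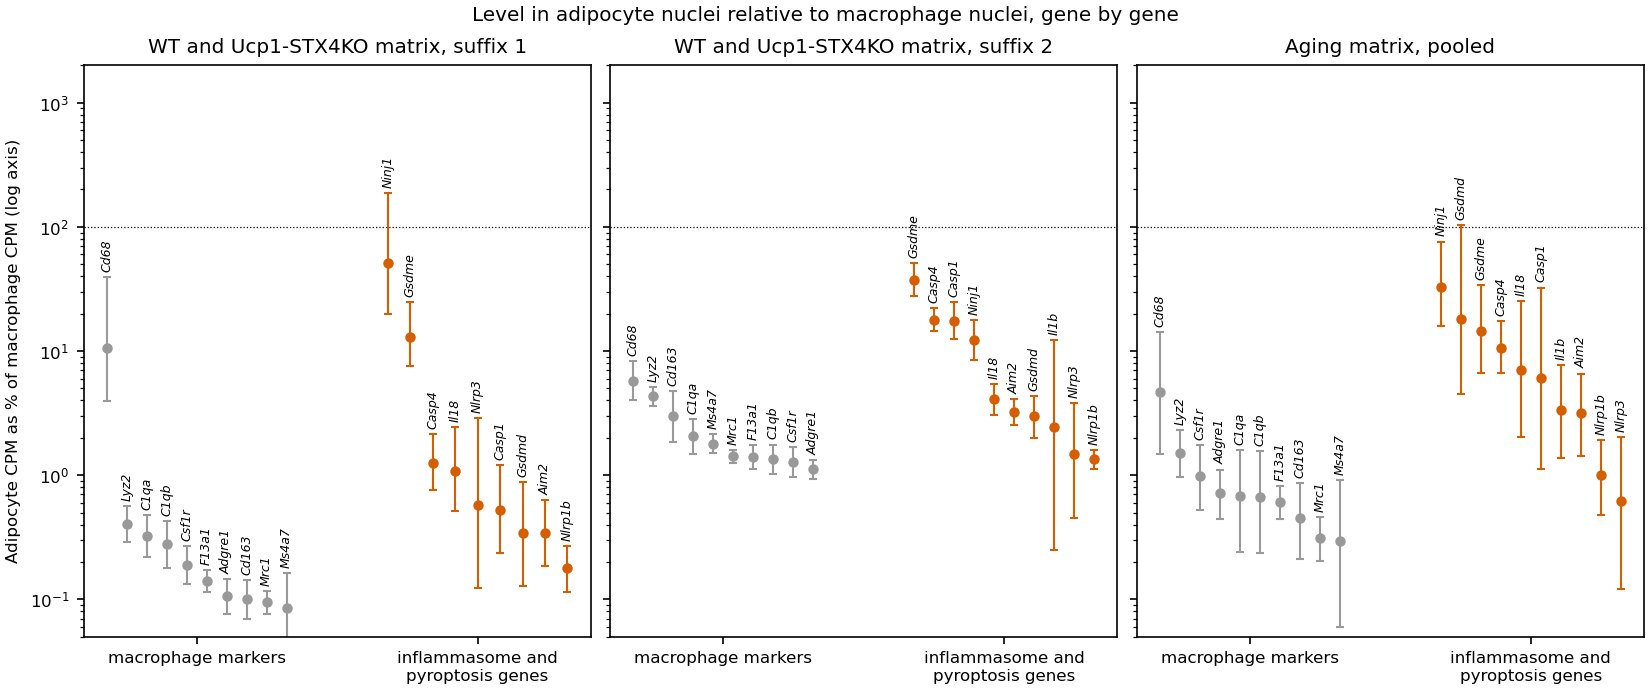
Level in adipocyte nuclei as a percent of the level in macrophage nuclei (log axis) for each member and each macrophage marker, in library 1 and library 2 of the WT and Ucp1-STX4KO matrix and in the aging matrix with its libraries pooled. In library 2, Gsdme (37.5%), Casp4 (17.9%), Casp1 (17.5%) and Ninj1 (12.2%) lie above all 10 markers, and Nlrp1b (1.35%) lies among them. The markers also assigned the nuclei, which lowers their percents.

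Stromal nuclei were then set against adipocytes. Pooled, 7 of the 8 members with enough UMIs in the WT and Ucp1-STX4KO matrix (all but Nlrp3 and Il1b) were at least 2-fold higher, where 23.2% of all genes were, and Ninj1 was at 0.524 times the adipocyte level (0.277 to 0.904). Within libraries the count was smaller, at 5 of 7 members in library 1 (19.8% of all genes) and 5 of 8 in library 2 (24.8%), with Casp4, Il18, Gsdmd and Gsdme higher in both. Aim2 had 0 stromal UMIs in library 1 and a ratio of 1.37 in library 2 (0.736 to 2.37), Nlrp1b had ratios of 2.75 (0.319 to 10.7) and 1.95 (1.30 to 2.84), and Ninj1 had 0.912 (0.414 to 1.75) and 0.502 (0.133 to 1.34), so that the pooled difference of Ninj1 was seen in neither library beyond counting error. The macrophage markers were higher in stromal nuclei too, at 59.6 CPM against 17.7 CPM in adipocytes. Stromal Nlrp1b and Aim2 stood at 1.93% and 3.02% of their macrophage level, within the range of the single markers (1.45 to 9.82%, 2.17% when summed), and the part of these in their counts was not tested. Casp4 (88.5%), Gsdme (86.3%), Gsdmd (38.5%), Casp1 (35.7%), Il18 (26.6%) and Ninj1 (13.9%) were above every marker when pooled. The markers, unlike the members, assigned the nuclei, and that assignment lowers their percents. Within libraries this held for Casp4, Gsdme, Gsdmd and Il18 in both, but Casp1 was at 6.37% in library 1, below Cd68 (15.5%), and Ninj1 at 6.12% in library 2, below Cd68 (10.8%) and Lyz2 (8.18%). The stromal to adipocyte ratio was 36.6 for Gsdmd (25.2 to 53.8), 16.3 for Il18 (11.9 to 22.2) and 14.9 for Casp4 (12.5 to 17.6) when pooled. It was 156, 34.8 and 56.6 in library 1 and 11.7, 6.80 and 5.15 in library 2, with intervals above 1 in each. With the upper limits of the stated filter it was 1.99, 2.56 and 1.61, with intervals that include equality. For the aging matrix 4 of 5 members (Casp4, Il18, Gsdmd and Gsdme, and not Ninj1) were past 2-fold against 17.3% of all genes when pooled, 2 of 3, 2 of 3 and 2 of 2 in libraries 1 to 3 (18.3%, 15.8% and 17.3% of all genes), with Casp4 in each, and the pooled Casp4 ratio was 14.2 (10.6 to 19.5). Library 3 set that ratio, which was 3.47 in library 1 (1.88 to 6.49), 5.75 in library 2 (2.60 to 13.4) and 15.8 in library 3 (9.91 to 26.6). Nlrp1b and Aim2 had 3 UMIs each in stromal nuclei of the aging matrix, and Nlrp3 had 1, where Casp4 had 329, Gsdme 57, Il18 39 and Gsdmd 20.

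Of 52 further genes of the pathway, 40 had enough UMIs for the macrophage to adipocyte comparison in the WT and Ucp1-STX4KO matrix, and 29 were at least 2-fold higher in macrophages and 1, Txnip, lower, against 22.2% of all genes higher and 28.3% lower. In library 1, 21 of 33 were higher and 2 lower (32.9% of all genes), Il18bp and Il1rn, both with 0 UMIs in macrophages, Il1rn being named for this count although it is sparse. In library 2, 28 of 38 were higher and none lower (20% of all genes). Txnip stood at 0.275 times the adipocyte level when pooled but at 0.563 and 0.505 times in libraries 1 and 2, and Il1r1 at 2.97 times when pooled but at 1.11 and 0.998 times within them. For the aging matrix 16 of 27 were higher and 2 lower (Txnip and Il18bp), against 16.4% and 29.4%. Of 33 with enough UMIs, 9 were past 2-fold higher in venous than in capillary nuclei (Nek7, Panx1, Casp12, Il33, Il1r1, Serpinb1a, Tlr4, Irf8 and 1 sparse gene) and none lower, against 8.59% of all genes higher. By library 9 of 26, 10 of 30 and 8 of 29 were higher, against 10.2%, 9.24% and 8.95% of all genes, with Nek7, Casp12, Il1r1 and Tlr4 in each. The level is given for those with at least 100 UMIs in the typed nuclei of a matrix, 35 and 31 genes, of which 10 and 12 had a highest cell type whose interval was clear of the next.

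Among the sensors of bacterial flagellin and secretion systems, Nlrc4, Naip2 and Naip5 were highest in macrophages of both matrices. Nlrc4 was at 81.7 and 95.2 CPM in macrophage nuclei of libraries 1 and 2 of the WT and Ucp1-STX4KO matrix, and its partners Naip2 and Naip5 were at 48.4 and 94.5 CPM and at 42.4 and 112 CPM. Next to macrophages both Naip genes were found in B or dendritic nuclei, with Naip2 at 64.7 CPM and Naip5 at 77.6 CPM in library 2. Pooled, macrophages and B or dendritic nuclei had overlapping intervals for Naip2 (89.5 and 48.0 CPM) and for Naip5 (104.6 and 56.7 CPM). Naip6 was highest in B or dendritic nuclei, at 78.5 CPM (46.6 to 124) pooled, with macrophages at 53.3 CPM (45.4 to 62.2) and overlapping intervals. P2rx7, the ATP-gated channel upstream of Nlrp3, was at 188 and 239 CPM in macrophages of the 2 libraries and at 245 CPM in T or NK nuclei of library 2, and pooled Schwann nuclei were at 178 CPM (123 to 250). P2rx7 of the aging matrix was carried by Schwann nuclei, at 234, 164 and 238 CPM in libraries 1 to 3, next to 203 CPM in pooled macrophages. Irf8, a transcription factor of dendritic cells and macrophages, was at 925 CPM (779 to 1089) in B or dendritic nuclei and 181 CPM (165 to 197) in macrophages of library 2. The adaptor Pycard (ASC), which links sensors to caspase-1, was at 15.1 and 11.8 CPM in macrophages and at 10.9 and 5.38 CPM in adipocytes of libraries 1 and 2, and at 2.49 CPM in pooled stromal nuclei. Pooled B or dendritic nuclei were highest for Pycard at 17.5 CPM, from 4 UMIs (4.76 to 44.7).

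The receptor transcripts of the WT and Ucp1-STX4KO matrix were highest in other cell types than Il1b and Il18. Il1r1, the receptor of IL-1, was highest in stromal nuclei, at 370.5 CPM in library 1 (341 to 402) and 1830 CPM in library 2 (1784 to 1877), followed by mural nuclei at 179 and 593 CPM. For the aging matrix its level was 553, 355 and 1170 CPM in stromal nuclei and 1029, 432 and 1559 CPM in venous nuclei of libraries 1 to 3, against 91.6, 46.0 and 86.1 CPM in capillary nuclei. Il18r1, the receptor of IL-18, was highest in T or NK nuclei (109 CPM, 81.6 to 142), with 4.28 CPM in macrophages. In the aging matrix, where no T or NK nuclei were typed, 6 Il18r1 UMIs put macrophages highest at 18.4 CPM (6.76 to 40.1). Il33, an alarmin of the IL-1 family, was at 24.7 CPM in stromal nuclei of the WT and Ucp1-STX4KO matrix, and in the aging matrix at 18.2, 6.60 and 76.7 CPM in stromal nuclei and 47.0, 50.6 and 37.0 CPM in venous nuclei of libraries 1 to 3, with 0.986 CPM in pooled capillary nuclei. Casp12, another caspase of the inflammatory group, was at 102 and 40.4 CPM in stromal nuclei of libraries 1 and 2 and at 120, 57.7 and 106 CPM in those of the aging matrix. Schwann nuclei also carried Casp12, with 91.8 CPM (53.5 to 147) beside 60.7 CPM (53.9 to 68.0) in stromal nuclei of the first matrix, pooled, and 82.9, 39.7 and 126 CPM in libraries 1 to 3 of the aging matrix. Txnip, a stress-induced partner of Nlrp3, was the gene of the list that was highest in adipocytes, at 946 and 349 CPM in adipocytes against 533 and 176 CPM in macrophages of libraries 1 and 2. Irf1, an interferon-induced transcription factor, was highest in endothelial nuclei of the aging matrix, at 190 CPM, 120 CPM and 195 CPM in libraries 1 to 3.

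The genes whose levels ran most like those of the members were found over 13 profiles, each a cell type in a library of the WT and Ucp1-STX4KO matrix with at least 50 nuclei, among 13165 genes with at least 200 UMIs. The profiles share libraries, depth and the RNA that spreads within a library, so the correlations of log2(CPM + 1) are descriptions. Nlrp1b ran most like Tbxas1, thromboxane synthase (Pearson r = 0.99), Naip5 (r = 0.985) and Gm46224 (r = 0.985). Aim2 ran most like the leukocyte genes Cd37 (r = 0.989), Lcp1 (r = 0.985) and Arhgap30 (r = 0.984). Casp4 ran most like Elmo1 (r = 0.962), Samd9l (r = 0.959) and Elf4 (r = 0.958), Casp1 like Tnfrsf1b (r = 0.952), Ctsc and P2rx7, Il18 like Cers6 (r = 0.956), Slc9a9 and Soat1, and Gsdmd like Lrrk1 (r = 0.975), Ttyh3 and Apaf1. For Gsdme and Ninj1 the best correlations were lower, with Ttc7 (r = 0.859) and Mindy1 (r = 0.843). Il1b and Nlrp3 had fewer than 100 UMIs and were left out.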

How the data were processed

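Nuclei were sorted from minced and homogenized interscapular brown adipose tissue and sequenced as 10x libraries. Per the file headers and the methods, the authors aligned reads to mouse mm10 and counted UMIs with Cell Ranger 6.1.2, and what they deposited are 2 matrices of unnormalised UMI counts (genes by barcodes), each with its gene and barcode lists. The number of barcodes is given as set (force-cells 10000), which the 3 libraries of the aging matrix hold and the others, with 11201 and 9106, do not, and whether introns were counted is not given in the sources used here. Seurat 4.1.0 stands in the submitters' processing notes. No normalised values or cell annotation were used.

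Nuclei with at least 200 UMIs and 100 genes were kept. The upper limits of the study's stated filter (2000 UMIs, 3000 genes) would have left 2763 nuclei of the WT and Ucp1-STX4KO matrix, none of them from library 1, and 18756 of the aging matrix, so they were applied only as an alternative. Each nucleus was assigned by a multinomial mixture over its marker counts, fitted in each library from 12 marker lists, at a posterior of at least 0.95 and with at least 2 distinct markers. Endothelial nuclei were then divided by 4 subtype lists. Lists with fewer than 20 clear nuclei were not fitted (neutrophil, mast cell and monocyte in both matrices, T or NK, B or dendritic and skeletal muscle in the aging matrix, and venous, arterial and lymphatic in the WT and Ucp1-STX4KO matrix). The scoring rule was set after seeing the data. Types rebuilt in this way may differ from those of the study. Scrublet called 0 and 309 doublets in libraries 1 and 2 of the WT and Ucp1-STX4KO matrix, and 1, 1 and 3 in libraries 1 to 3 of the aging matrix, so its calls were not used, no doublets were removed, and the top 8% of scores were left out as an alternative.

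Counts were summed per type and library. Intervals are exact 95% Poisson for CPM, exact Clopper-Pearson for shares and exact conditional binomial for ratios. With 1 library per condition there was no test between conditions, and no p-value was computed. A ratio between types used genes with at least 20 UMIs over both, and a gene was counted as higher from 2-fold. The genes named were the 10 members, the pathway genes with at least 100 UMIs in typed nuclei of either matrix, and the 3 genes most like each member. The members and lists were chosen with earlier results of these data known. Gene positions follow GRCm38 (GENCODE), and upstream sequences come from RefSeq (GRCm38.p6). The gating was tried on nuclei simulated from the profiles of the typed nuclei themselves, with no doublets. Such a trial cannot measure how pure the types are in the real data. Python 3.11.15, numpy 2.4.6, scipy 1.17.1, pandas 2.3.3, scanpy 1.11.5 and matplotlib 3.10.9 were used.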

Additional observations from a re-analysis of the deposited data

How the results depend on the processing

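Each main value was recomputed with a stricter gate, graph clusters, mixed-marker nuclei left out, the full stated filter, the top doublet scores left out, single libraries and the mean of per-nucleus CPM, where these could be applied. Of 59 alternative values of the 9 main results, 26 stayed within the counting interval and 33 moved beyond it. None of the ratios among them turned direction, and the shares and levels have no direction to turn. The macrophage share of member UMIs in the WT and Ucp1-STX4KO matrix (41.0%) was 37.2% with the stricter gate, 48.0% with clusters, 45.9% with the full filter, 43.2% without the top doublet scores, 13.1% in library 1 and 51.5% in library 2. The endothelial share in the aging matrix (57.0%) was 58.8% with the stricter gate, 59.7% without mixed nuclei, 69.8% with the full filter, and 30.3%, 65.6% and 63.8% in libraries 1 to 3. Nlrp1b in macrophages (387 CPM) was 324 CPM with clusters, 413 CPM without the top doublet scores and 257 CPM in library 1. Casp4 in stromal nuclei of the aging matrix (134.5 CPM) was 86.7 CPM with the full filter, 112.5 CPM as the mean of per-nucleus values, and 31.6, 31.3 and 279 CPM in libraries 1 to 3. The macrophage to adipocyte ratio of the 10 members in the WT and Ucp1-STX4KO matrix (36.4) was 38.9 with the stricter gate, 39.3 without mixed nuclei, 40.9 without the top doublet scores, 40.03 without adipocyte nuclei that held a macrophage-marker UMI, 29.7 as the mean of per-nucleus CPM, 42.3 in library 1, 20.6 in library 2 and 5.78 with the full filter. That filter left 495 adipocyte nuclei, in which the members came to 125 CPM and the macrophage markers to 88.3 CPM, against 17.7 CPM of these markers in all adipocyte nuclei. The Casp4 venous to capillary ratio (23.2) was 11.5 with clusters and 16.6 and 17.9 in libraries 2 and 3. Thinning to 500 UMIs gave shares with a UMI of 17.8% for Nlrp1b in macrophages (56.6%) and 11.1% for Casp4 in venous nuclei (33.5%). The macrophage to adipocyte ratio of the aging matrix (18.2) stayed between 16.3 and 20.1 over 7 alternatives, clusters giving no macrophage cluster there. Among 206 alternative values of single genes 54 moved and 1 turned, the Il1b ratio of macrophages to adipocytes, which was 0 in library 1 because macrophages had 0 UMIs. The cause of the other changes was not tested.

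Il1b, Nlrp3 and Casp1, and all values of macrophages of the aging matrix, rest on few UMIs. No paired analysis was possible because no source used here ties a barcode suffix to a sample and no result comes from a test over samples.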

Other observations

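The nuclei that received no cell type also held member transcripts. In the WT and Ucp1-STX4KO matrix 1151 nuclei were without a type, 1141 of them in library 2. Their level of Nlrp1b was 138.6 CPM and that of the 10 members 337.8 CPM, with 376.8 CPM of macrophage markers, values between those of stromal and macrophage nuclei. In the aging matrix the 1497 nuclei without a type had 12.2 CPM of Nlrp1b and 103.6 CPM of macrophage markers.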
